A study of Mus musculus with 576 samples.

Results

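The cells described here are single cells from cultures of mouse fetal liver erythroid progenitors that carried at least 5 of 10 megakaryocyte marker genes, Pf4, Itga2b, Gp1ba, Gp1bb, Gp9, Vwf, Gp5, Itgb3, Treml1 and Clec1b, at 10 CPM or more (CPM are a gene's counts in a cell scaled to a cell total of 1000000). The rule found 53 such cells among 563 kept cells. The markers chose the cells, so their values below are a description and carry no test. Fetal liver of C57/Bl6J mice at embryonic day 14.5 was depleted with antibodies that included one to CD41, the protein made from Itga2b, and was then sorted for cells enriched in BFU-E, the burst-forming progenitor committed to the red cell lineage. All groups share that sort, the strain and a culture medium with SCF at 100 ng/mL, IGF1 at 40 ng/mL and EPO at 2 U/mL. The control cells were cultured for 1, 2 or 3 days in that medium, and the dexamethasone cells for the same times with 100 nM of this synthetic glucocorticoid added. Each day and treatment is 1 plate of 96 wells with 1 cell per well, so no plate has a second plate of its kind and plate and treatment cannot be told apart within a day.

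A megakaryocyte is the large polyploid cell that sheds platelets. It shares its progenitors with the red cell lineage, and both lineages use the transcription factor GATA1, with KLF1 driving the red cell programme and FLI1, RUNX1 and MEIS1 acting on the platelet side. The 10 rule markers encode surface and granule proteins of platelets. Itga2b and Itgb3 are the subunits of the fibrinogen receptor. Gp1ba, Gp1bb, Gp5 and Gp9 make up the receptor complex for von Willebrand factor, the product of Vwf. Pf4 is a chemokine of the alpha granules, Treml1 a granule membrane receptor and Clec1b the platelet receptor for podoplanin.

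The start of the genes that chose the cells is shown because the members differ in which markers they carry together. RefSeq on the GRCm38.p6 build gave a promoter for 8 of the 10 markers, all but Vwf and Itgb3. The 120 bases before the start are printed 5′ to 3′ on the gene's strand for Gp1ba, Gp5 and Gp9 of the von Willebrand factor receptor and for Pf4, and capitals mark the GATA motif GATAA and the ETS motif GGAAG on either strand.
Gp1ba, chr11:70639002-70639121, plus strand: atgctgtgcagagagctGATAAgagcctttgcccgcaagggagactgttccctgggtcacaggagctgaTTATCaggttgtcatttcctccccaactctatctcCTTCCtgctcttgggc
Gp5, chr16:30310782-30310901, minus strand: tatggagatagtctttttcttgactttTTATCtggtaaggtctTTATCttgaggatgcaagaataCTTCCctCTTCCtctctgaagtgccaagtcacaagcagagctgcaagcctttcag
Gp9, chr6:87777950-87778069, plus strand: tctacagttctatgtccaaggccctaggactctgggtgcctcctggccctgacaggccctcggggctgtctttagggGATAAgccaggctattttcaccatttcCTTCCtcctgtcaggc
Pf4, chr5:90772315-90772434, plus strand: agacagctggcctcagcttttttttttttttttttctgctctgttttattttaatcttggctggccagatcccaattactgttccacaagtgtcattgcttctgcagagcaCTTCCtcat
In the 250 bases before the start, 4 of these 8 genes held GATAA on either strand, 7 held GGAAG and 3 held both. The 3 with both are Gp1ba, Gp5 and Gp9, which are printed above. Gp1bb of the same receptor is not printed and held no GATAA. Among all 32851 RefSeq promoters of the same length, 22.6% held GATAA, 64.1% GGAAG and 13.2% both. A match is a run of letters and not a shown binding site.

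On the control plates, 13 of 94 kept cells were members on day 1, 3 of 96 on day 2 and 3 of 93 on day 3, which is 13.8% (exact Clopper-Pearson 95% interval 7.57 to 22.5), 3.13% (0.649 to 8.86) and 3.23% (0.670 to 9.14). With dexamethasone, 18 of 94, 11 of 92 and 5 of 94 cells were members, or 19.1% (11.8 to 28.6), 11.96% (6.12 to 20.4) and 5.32% (1.75 to 11.98). The dexamethasone plate held more members than the control plate on each of the 3 days, by 5.32, 8.83 and 2.09 percentage points. The mean difference was 5.42 points (SD 3.37, n = 3 days), and the exact two-sided sign-flip permutation test gave p = 0.25, the smallest that 3 days allow. With each cell thinned to 300000 counts, which left out 9 shallower cells, the members numbered 12, 2 and 3 in control and 18, 12 and 4 with dexamethasone on days 1, 2 and 3. The direction did not hold on day 3 with at least 6 markers, where each plate held 1 such cell (1.06% with dexamethasone, 1.08% in control). With at least 4 markers it held on each day, but on day 2 only at 15.2% against 14.6%. Both day 1 plates had the highest share of their treatment, while the intervals of the paired plates overlapped on every day.

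**Figure D1:**
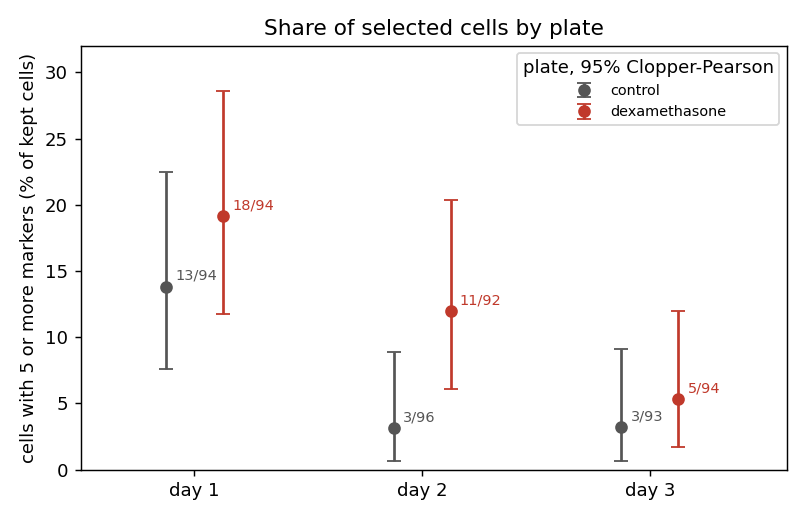
Percent of kept cells with at least 5 of the 10 rule markers on the y axis, by day on the x axis, for control (grey) and dexamethasone (red) plates, with exact Clopper-Pearson 95% intervals that cover counting error only. The numbers are members over kept cells, and the share falls from 13.8% to 3.23% in control and from 19.1% to 5.32% with dexamethasone between days 1 and 3, with overlapping intervals within each day.

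The markers differed in how often cells outside the rule carried them. Itga2b reached 10 CPM in all 53 members, Gp5 in 51, Gp9 in 45, Itgb3 in 42, Gp1bb in 41 and Gp1ba in 38, while Treml1 did so in 28, Pf4 and Vwf in 26 each and Clec1b in 10. Of the 510 other cells, 63.3% carried Gp5, 49.2% Itga2b and 39.8% Gp1ba at that level, so these 3 genes were common in cells outside the rule. Gp9 (19.02%), Vwf (13.5%), Itgb3 (9.22%) and Gp1bb (7.25%) were less frequent there. Pf4 was at 10 CPM in 6 of the 510 other cells and never above 53.2 CPM, Treml1 in 11, and Clec1b in none, with a highest value of 8.87 CPM. A member could therefore reach 5 markers through genes that many progenitors of these plates carry.

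Pf4 separated the members most widely. It had no count in 24 members, was at 100 CPM or more in 14 and at 1000 CPM or more in 7, with a highest value of 6298 CPM. Across plates its lowest, median and highest level in members was 0, 54.3 and 4703 CPM on control day 1, 0, 18.2 and 2854 CPM on dexamethasone day 1, and 0, 17.9 and 6298 CPM on dexamethasone day 2. On dexamethasone day 3 Pf4 was carried by 1 of 5 members, at 402 CPM, and none of the 6 members of control days 2 and 3 had a Pf4 count. Levels of 1000 CPM or more thus lay on day 1 of both treatments and on day 2 with dexamethasone. Itgb3 followed the same plates, with medians of 420, 360 and 420 CPM on control day 1, dexamethasone day 1 and dexamethasone day 2, 13.5 CPM on dexamethasone day 3, and no count in the members of control days 2 and 3. Itga2b, whose protein was used to deplete cells before culture, ranged from 12.5 to 4200 CPM in members and had medians of 599, 64.8 and 77.2 CPM on control days 1, 2 and 3 and 744, 351 and 304 CPM with dexamethasone.

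Clec1b differed from the rest by plate. All 10 members with Clec1b at 10 CPM came from dexamethasone, 5 of 18 on day 1 and 5 of 11 on day 2, with a highest value of 443 CPM. The 19 control members had at most 4.93 CPM, although 5 control members of day 1 carried 9 or 10 markers. Clec1b overlaps Clec9a on the same strand, and how the counts assign such reads is not given in the sources used here. Gp1bb overlaps Sept5 on the same strand in the same way.

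**Figure D2:**
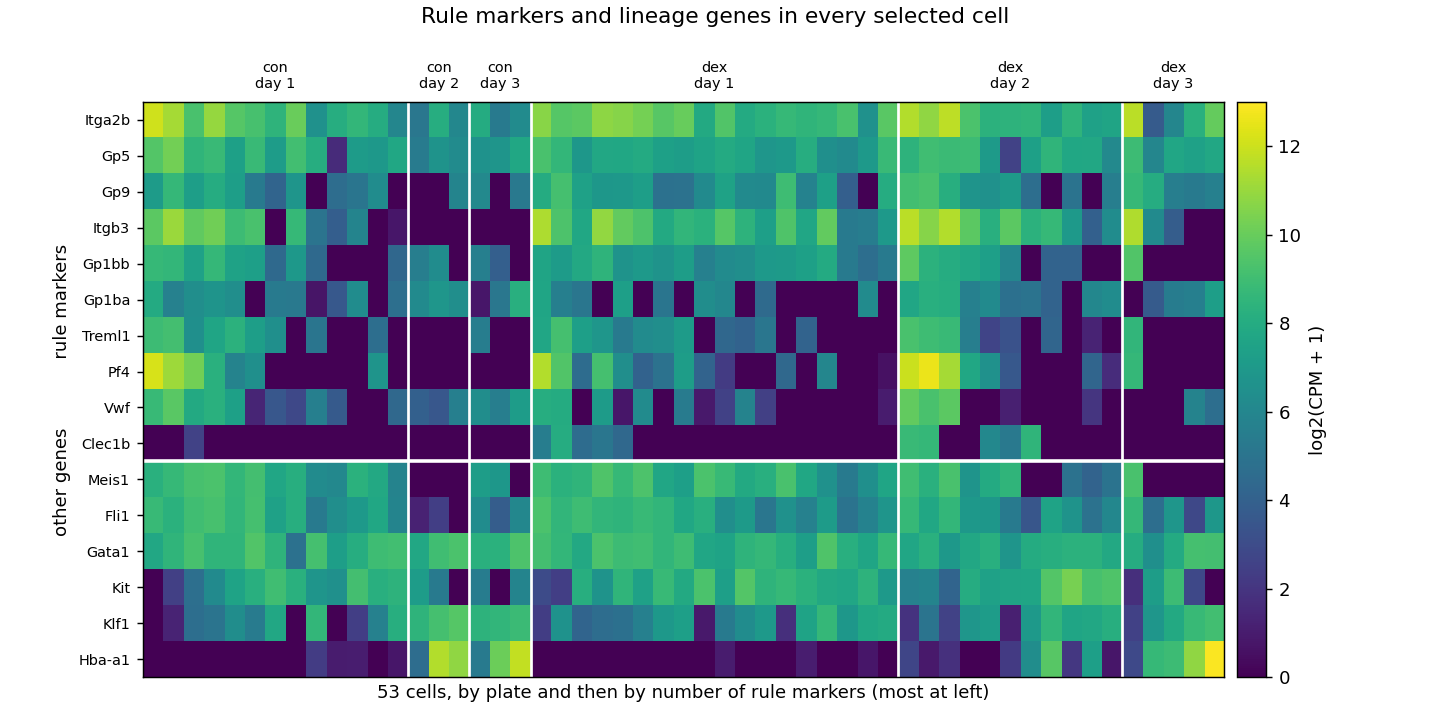
Colour gives log2(CPM + 1) of the 10 rule markers (upper rows) and 6 other genes (lower rows) in each of the 53 members (columns), by plate and then by number of markers; con is control and dex is dexamethasone. Cells with 9 or 10 markers, at the left of control day 1, dexamethasone day 1 and dexamethasone day 2, carry Pf4 and Itgb3. Their Klf1 is below 100 CPM, and below 10 CPM in 5 of 13, with little or no Hba-a1. The 6 members of control days 2 and 3 carry Klf1 and Hba-a1 and no Itgb3 or Pf4.

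Kept cells with 0, 1, 2 and 3 markers numbered 49, 112, 159 and 146. A total of 44 had 4 markers, just outside the rule, against 19 with 5, just inside it, and 8 with 6, so the steepest fall lay between 3 and 4 markers. The remaining members spread over 7 (8 cells), 8 (5 cells), 9 (9 cells) and 10 markers (4 cells). Cells with 9 or 10 markers occurred on control day 1 (5), dexamethasone day 1 (5) and dexamethasone day 2 (3), and on no other plate. The 44 cells with 4 markers had Itga2b at a median of 77.1 CPM, Gp5 at 107 CPM and Pf4 at a median of 0 and a highest value of 11.3 CPM.

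Genes that the rule did not use differed with the number of markers among the members, given here as medians over cells with no test. Klf1, the erythroid transcription factor, stood at 246 CPM in the 27 members with 5 or 6 markers, 80.4 CPM in the 13 with 7 or 8 and 23.7 CPM in the 13 with 9 or 10, against 374 CPM in cells with 0 to 3. The Klf1 level reached 100 CPM in 22 of 27, 6 of 13 and 0 of 13 of these member classes. Meis1 went the other way, at 39.04, 289 and 422 CPM in the same order, as did Fli1 at 63.7, 172 and 391 CPM. Gata1, shared by both lineages, was level at 299, 347 and 362 CPM and was carried at 10 CPM by all 53 members. Rhag, a red cell membrane protein of the Rhesus complex, stood at 418, 224 and 8.25 CPM. The alpha globin gene Hba-a1 was at 10 CPM in 13 of 27 members with 5 or 6 markers and in none of the 26 with 7 or more, where the highest value was 6.32 CPM. All 13 came from days 2 and 3, and no day 1 member of any class had more than 3.93 CPM, so this contrast also holds the day. Kit, the receptor for SCF, was at 207, 266 and 51.9 CPM. The cells with most markers thus carried Meis1 and Fli1 with low Klf1, and members near the threshold mostly carried an erythroid set. Kit was highest in the middle class. It was below 100 CPM in 9 of the 13 members with 9 or 10 markers, but in only 2 of the 5 on dexamethasone day 1.

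The label of the rule therefore held for only part of the members. Splitting them at 100 CPM of Klf1, a level chosen after the values were seen, gave 25 members below it and 28 at or above it. The 25 cells below had a median of 9 markers, 761 CPM Itgb3, 422 CPM Meis1 and 372 CPM Fli1, and no Hba-a1 above 6.32 CPM. The 28 cells at or above had a median of 5 markers, 41.6 CPM Itgb3, 46.9 CPM Meis1 and 60.3 CPM Fli1. Their Hba-a1 had a median of 3.65 CPM and a highest value of 7854 CPM, and it reached 10 CPM in 13 of the 28. By plate, the cells below 100 CPM of Klf1 numbered 10 of 13 on control day 1, 10 of 18, 4 of 11 and 1 of 5 on dexamethasone days 1, 2 and 3, and 0 of 3 on control day 2 and on control day 3. Meis1 reached 100 CPM in 24 of the 25 cells below and in 10 of the 28 cells at or above, and 5 of those 10 came from dexamethasone day 1. Low Klf1 alone did not set apart 1 kind of cell. Mpo, a neutrophil granule gene, was at 10 CPM in 9 of the 25 cells below and 4 of the 28 others, with highest values of 9853 and 2132 CPM. The cell with 9853 CPM, from control day 1, had 930 CPM Hdc and 358 CPM Cpa3, both mast cell genes, and no Pf4. Another cell below, of the same plate, had 1292 CPM Mpo, 472 CPM Cpa3 and no Pf4. The cells below held a median of 758800 counts and those at or above 1229000. Whether a well held more than 1 cell was not tested.

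**Figure D3:**
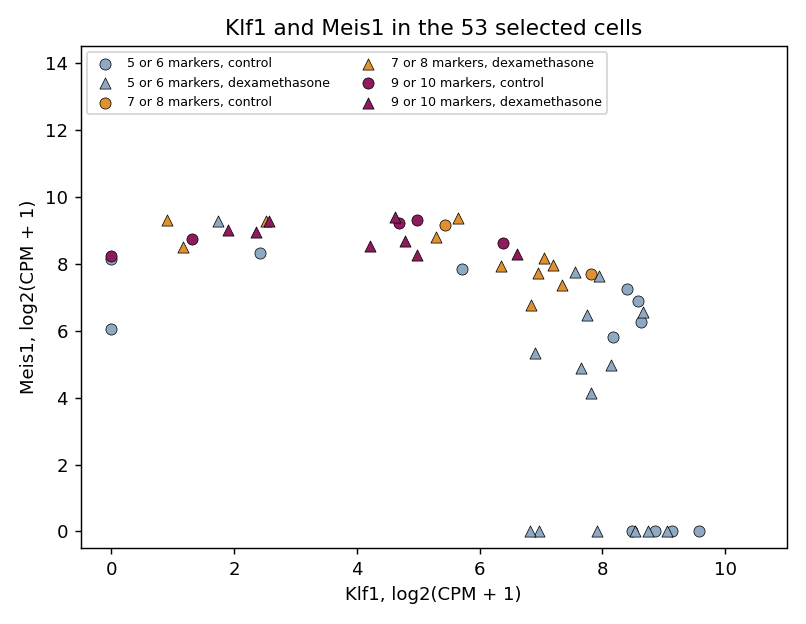
Each point is 1 of the 53 members, with Klf1 on the x axis and Meis1 on the y axis, both as log2(CPM + 1); colour gives the number of rule markers and shape the treatment. The 25 cells below 100 CPM of Klf1 lie along the upper left, 24 of them with Meis1 at 100 CPM or more, and the 28 others spread down the right side, 10 of them with Meis1 at 100 CPM or more.

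The 6 members of control days 2 and 3 stood on the erythroid side throughout. Their Klf1 ran from 336 to 761 CPM and their Hba-a1 from 24.1 to 3635 CPM. All 6 had Itga2b, Gp5 and Vwf at 10 CPM or more, 5 had Gp1ba, 4 Gp1bb and 3 Gp9. On dexamethasone day 3, 4 of 5 members had Klf1 between 112 and 529 CPM. The remaining cell of that plate had 2828 CPM Itgb3, 3223 CPM Itga2b and 4.74 CPM Klf1. It supplied all Meis1 and Pf4 counts of that plate's members and 99.3% of their Itgb3 counts, so the plate's member values of these genes are the values of 1 cell.

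Across the 53 members, Spearman's rho was -0.77 between Meis1 and Klf1 and 0.74 between Itgb3 and Meis1. Within the 31 members of day 1 it was -0.59 and 0.69. By plate, Meis1 and Klf1 had -0.25 in the 13 members of control day 1 and -0.82 in the 18 of dexamethasone day 1. The number of markers and Klf1 had -0.58 over all members, -0.13 on control day 1 and -0.51 on dexamethasone day 1. The values over all members thus also hold differences between plates. Pf4 and Klf1 had -0.56 over all members and -0.35 on day 1. These are descriptions over cells that share plates. The number of markers and a cell's total count had a rho of -0.24 over all members, -0.41 on day 1 and -0.61 in the 18 members of dexamethasone day 1, so the cells with most markers were not the deepest.

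Klf1 and Kit were low in the members richest in Pf4, and less evenly so at a wider cutoff. Of the 14 members with Pf4 at 100 CPM or more, 2 had Klf1 and 4 had Kit at 100 CPM or more, up to 161 and 298 CPM. The 7 members with Pf4 at 1000 CPM or more had Vwf from 237 to 944 CPM, Fli1 from 215 to 637 CPM, Klf1 at most 30.5 CPM and Kit at most 56.9 CPM. Ppbp, an alpha granule chemokine, had a count in 2 members, both of these, at most 57.2 CPM. Tubb1, the tubulin of the platelet rim, was at 10 CPM in 8 of 53 members and 10 of 510 other cells. Mki67, a gene of cycling cells, was at 10 CPM in 6 of those 7 members, with a median of 386 CPM.

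For genes outside the rule, members were compared with the other kept cells of the same plate. Counts were summed over the members and over the other cells of each plate with at least 5 members, that is control day 1 and the 3 dexamethasone plates, and tested with edgeR with the plate as a block (8 sums, 3 residual degrees of freedom). Members were chosen by their expression in these same cells, so the test asks how evenly a difference recurs over plates, not whether it would be found in other cells. In the members, the receptor genes P2rx1 and Cd9, the transcription factors Meis1, Fli1, Runx1 and Mef2c and the cytoskeletal genes Zyx and Tuba8 were among the higher genes, and Fos, Aplp2, Redrum, Ighm and Sh2d4a were lower. At an adjusted p of at most 0.05, 45 of 15150 genes differed (0.297% of those tested), 40 higher (0.264%) and 5 lower (0.033%), and 1844 had an unadjusted p under 0.05. The count was 0 without control day 1, without dexamethasone day 1 or without dexamethasone day 2 (1356, 1147 and 1672 genes at an unadjusted p under 0.05), 27 higher and 8 lower without dexamethasone day 3, and 0 over all 6 plates, where 1493 genes had an unadjusted p under 0.05. No gene was called once any 1 of the 3 plates that hold the members with most markers was left out. Leaving out a plate also lowers the residual degrees of freedom. Over the fits with a plate left out, the log2 fold change ran from 3.91 to 4.04 for P2rx1 and from 3.44 to 3.88 for Meis1. Whether the calls were lost through the cells of those plates or through lower power was not tested. The median log2 fold change over all genes was -0.24, and the values below are read beside it.

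P2rx1, an ATP-gated channel of platelets, was higher in the members of each plate tested. The summed counts of the members, as CPM scaled by TMM, gave 124, 110, 115 and 79.8 CPM of P2rx1 on control day 1 and dexamethasone days 1, 2 and 3, against 7.92, 6.49, 6.80 and 6.21 CPM in the other cells. The groups did not overlap, and 91.2% of the members' P2rx1 counts on dexamethasone day 3 were from 1 cell. The log2 fold change was 3.95 (SE 0.22, edgeR adjusted p = 0.00893), higher on 4 of 4 plates. At the level of cells, P2rx1 reached 10 CPM in 37 of 53 members and 40 of 510 other cells.

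Among the transcription factors, Meis1 stood at 257, 293, 175 and 167 CPM in members and at 41.2, 19.3, 10.5 and 12.9 CPM in other cells (log2 fold change 3.58, SE 0.29, edgeR adjusted p = 0.023). Fli1 had 228, 200, 128 and 160 CPM against 40.3, 33.1, 40.3 and 27.2 CPM (2.33, SE 0.22, edgeR adjusted p = 0.0327). Both were higher on 4 of 4 plates, and Fli1 by least on dexamethasone day 2, where the members carried the least Fli1. Runx1 (log2 fold change 1.44) and Mef2c (2.06) also rose. Gata2 had 1.63 and did not pass the test (edgeR adjusted p = 0.182). Gata1 was at 0.18 and Tal1 at 0.28, and Klf1 at -1.08 (SE 0.20, edgeR adjusted p = 0.147).

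Zyx, which encodes the focal adhesion protein zyxin, was at 386, 272, 238 and 173 CPM in members and 52.3, 37.04, 32.01 and 18.1 CPM in other cells. Its log2 fold change was 2.98 (SE 0.15, edgeR adjusted p = 0.00893), higher on 4 of 4 plates. Cd9, a tetraspanin of the platelet surface, had 257, 302, 238 and 290 CPM against 41.8, 23.6, 26.2 and 32.1 CPM (3.16, SE 0.21, edgeR adjusted p = 0.0159). Tmsb4x, the actin-binding peptide thymosin beta, had 2.66 and Tuba8, an alpha tubulin, 4.13. The other named genes that rose were Med12l (4.31), Rab37 (4.03), Emilin1 (3.00), Ripor2 (2.99), Muc13 (2.77) and Dusp3 (2.57), each higher on 4 of 4 plates. Med12l lies over P2ry12, P2ry13 and P2ry14 on the opposite strand and the strand setting of the counting is not given in the sources used here, so its reads cannot be told apart from theirs. The largest Muc13 and Emilin1 ratios came from dexamethasone day 3, where 58.6% and 95.5% of the members' counts were from 1 cell.

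A few further genes past the threshold are named here, chosen after their values were seen. Rap1b, a small GTPase that activates platelet integrins, stood at 307, 275, 304 and 199 CPM in members and 45.3, 59.2, 66.7 and 63.97 CPM in other cells (log2 fold change 2.20, SE 0.21, edgeR adjusted p = 0.0327). Lims1 (1.53) and Rsu1 (1.49), partners in the complex of integrin-linked kinase, rose as well. Mrvi1, a substrate of cGMP-dependent kinase in platelets, had 167, 55.6, 105 and 34.4 CPM against 1.79, 1.35, 0.860 and 1.92 CPM (5.77, SE 0.60, edgeR adjusted p = 0.0363). Ache, the acetylcholinesterase long used to stain mouse megakaryocytes, had 111, 44.04, 114 and 108 CPM against 11.3, 5.604, 7.17 and 18.4 CPM (3.20, SE 0.31, edgeR adjusted p = 0.0332). For Rap1b, Mrvi1 and Ache every member sum stood above every sum of other cells.

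**Figure D4:**
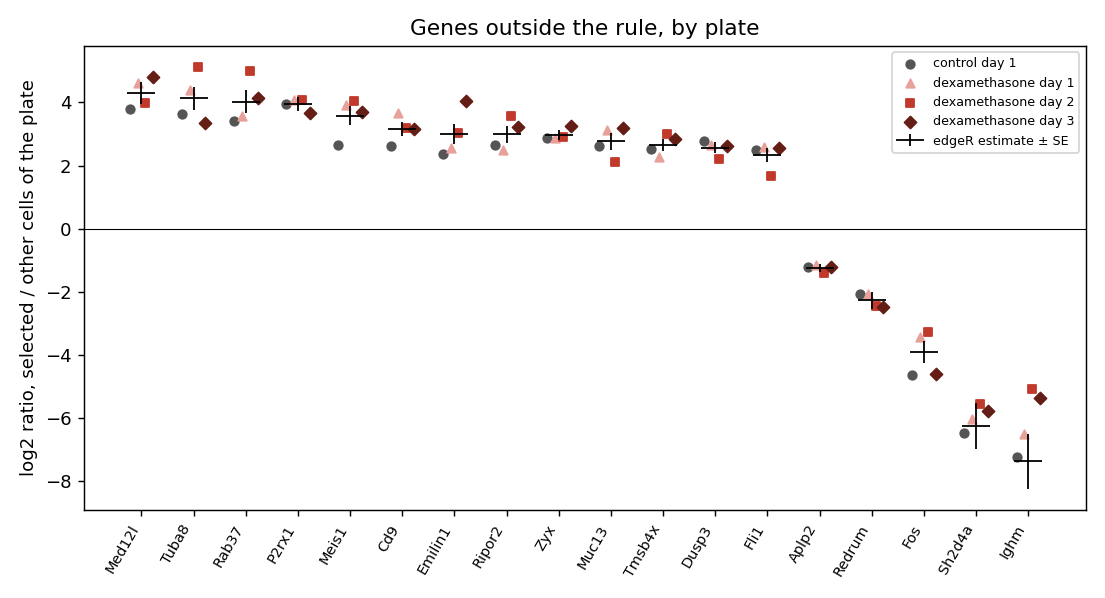
Log2 ratio of members to the other cells of the same plate on the y axis, for the 13 genes named as higher and the 5 lower on the x axis; each symbol is 1 of 4 plates and the black bar is the edgeR log2 fold change with its SE. All 4 plates lie on the same side of 0 for each gene, and P2rx1 and Zyx vary least among the higher ones.

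The 5 lower genes include an immediate early gene. Fos had 9.52, 11.2, 6.24 and 0.428 CPM in members and 236, 122, 61.2 and 11.3 CPM in other cells, lower on 4 of 4 plates (log2 fold change -3.90, SE 0.35, edgeR adjusted p = 0.0312). On control day 2, outside the test, the 3 members had Fos at 21.4, 87.7 and 536 CPM, above the plate's other cells at a median of 0.878 CPM. Dusp1, an immediate early phosphatase, was at -1.87 and did not pass (edgeR adjusted p = 0.0706). Aplp2, a relative of the amyloid precursor protein, had 83.9, 69.6, 105 and 99.0 CPM against 193, 153, 276 and 229 CPM (-1.24, SE 0.13, edgeR adjusted p = 0.0372). Redrum, a long noncoding RNA of red cells, had a log2 fold change of -2.27. Ighm (-7.37) and Sh2d4a (-6.24) also fell, but Ighm rests on few cells: 16 of 510 other cells held it at 10 CPM, and 1 cell gave 77.2% of the other cells' counts on dexamethasone day 1. None of the 5 was called with at least 6 markers, with no plate block or without cells carrying neutrophil or monocyte genes. Further genes were named, without a test claim, because even their plate ratio nearest 0 was large. They were Mrap (-7.63), Id2 (-6.89), Arhgdig (-5.86), Gpr65 (-5.01) and Prnp (-4.97). Their ratios could differ widely between plates, from -3.23 to -9.15 for Id2 and from -3.32 to -8.99 for Arhgdig. Id2 was at 1.78 CPM in the other cells of control day 1.

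The gene lists were read by their counts and medians beside those of all genes, where 5082 of 15150 log2 fold changes were above 0. Of 22 tested genes of platelet receptors and signalling, 21 were above 0, with a median of 2.04, and 6 rose, among them P2rx1, Cd9, Syk (1.91), F2r (2.17) and F2rl3 (3.21). F2r and F2rl3 encode thrombin receptors and Syk a kinase that acts below several platelet receptors. F2rl2, the third thrombin receptor, was at 10 CPM in 42 of 53 members and 98 of 510 other cells, with a log2 fold change of 4.64 that did not pass (edgeR adjusted p = 0.146). Gp6 and Selp were among the 3 listed genes too low to test. Of 19 tested genes of platelet granules and clotting, 16 were above 0 with a median of 2.35 (1.31 without control day 1), and 2 rose; on dexamethasone day 3 only 8 of the 19 were above 0. These were Tbxas1, thromboxane synthase (5.27), and Timp3, a metalloproteinase inhibitor (5.41), which had no count on dexamethasone day 3 on either side. Thbs1, thrombospondin, reached 6655 CPM in a member and Mmrn1, multimerin, 1414 CPM. Neither passed the test, at log2 fold changes of 7.28 and 6.92 (edgeR adjusted p = 0.0812 and 0.147). Of 19 cytoskeleton and demarcation genes, 17 were above 0 with a median of 1.37, and 2 rose, Tuba8 and Zyx. Of 19 megakaryocyte transcription factors, 14 were above 0 with a median of 0.38, and 4 rose.

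The globin, heme and red cell membrane lists had medians below that of all genes, without a call. Of 5 tested globins, 4 were below 0 with a median of -1.91. Their direction was not the same on every plate: the median log2 ratio was -4.14 on control day 1, -2.12 and -0.98 on dexamethasone days 1 and 2, and 1.32 on dexamethasone day 3, where all 5 were above 0. Without control day 1 the globin median was -1.14. Of 18 genes of heme and iron, 16 were below 0 with a median of -0.67, and of 23 red cell membrane genes 20 with a median of -0.81, or -1.27 without dexamethasone day 3. On that plate 10 of the 18 and 11 of the 23 were above 0. The transferrin receptor Tfrc had -1.21 (SE 0.19, edgeR adjusted p = 0.107), Rhd, a Rhesus antigen, -3.09 (edgeR adjusted p = 0.117), and Cd24a, an antigen stained in the sort, -2.29 (edgeR adjusted p = 0.17). Kit had -0.94 (SE 0.12, edgeR adjusted p = 0.0662). Each of these was lower on 4 of 4 plates and none passed. Of 14 erythroid transcription factors, 8 were below 0 with a median of -0.14, above the -0.24 of all genes.

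Most genes of the cell cycle phases and of ribosome biogenesis were below 0, as were 10062 of all 15150 genes. Of 20 S phase genes, 19 were below 0 with a median of -0.40, of 20 G2 and M phase genes 19 with a median of -0.71, and of 15 ribosome biogenesis genes all 15 with a median of -0.33, and none passed the test. The cell cycle values rest on dexamethasone day 3, a plate with 5 members, where all 20 genes of each phase were below 0 with a median log2 ratio of -3.63 for G2 and M and -1.05 for S phase. On dexamethasone day 2, 17 of the 20 G2 and M genes and 10 of the 20 S phase genes were above 0. Without dexamethasone day 3 the medians were -0.11 for G2 and M, with 12 of 20 below 0, and -0.15 for S phase, with 14 of 20 below 0. Among 15 genes of endomitosis and cyclins, 10 were below 0 with a median of -0.12, where Ccnd3 (0.58) and Ccne1 (-1.68) lay farthest apart among the D and E cyclins. Of 18 early progenitor genes, 9 were above 0 and 3 rose, Meis1, Muc13 and Adgrg1 (1.03), an adhesion receptor of stem and progenitor cells. Cd34 had -1.81 and Flt3 -4.99, neither past the test (edgeR adjusted p = 0.17 and 0.253). Epor, the erythropoietin receptor, was at -0.53.

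**Figure D5:**
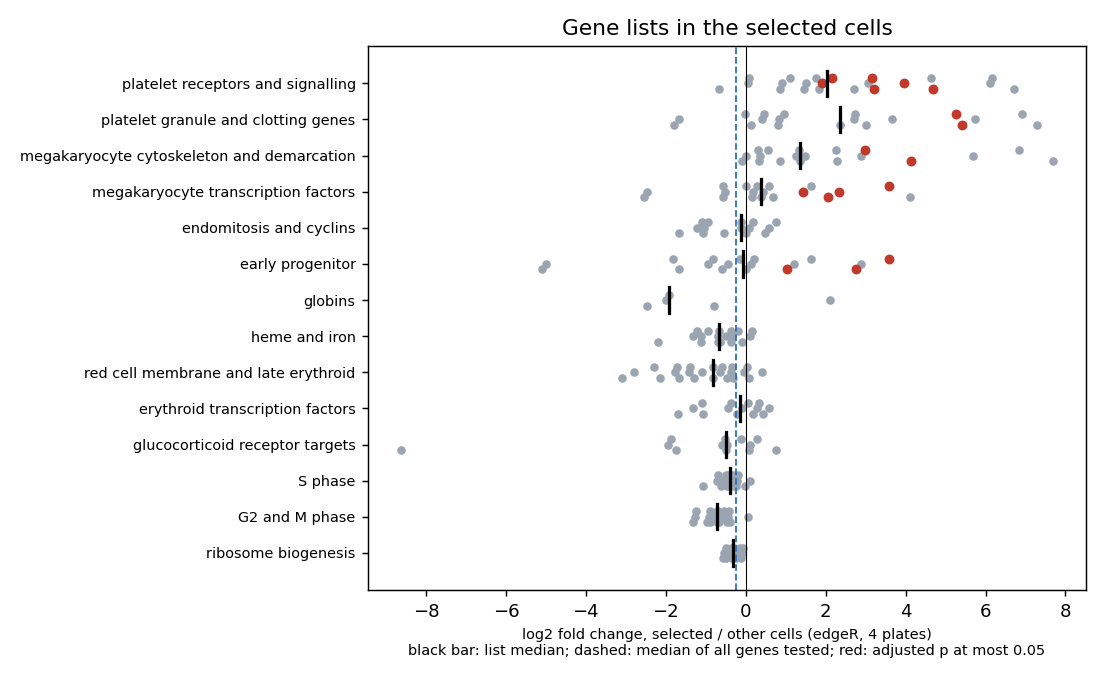
Each point is a gene of 1 of 14 lists (rows), at its edgeR log2 fold change of members against other cells over 4 plates (x axis); red points have an adjusted p of at most 0.05, black bars are list medians and the dashed line is the median of all genes, -0.24. The 3 uppermost lists have medians of 2.04, 2.35 and 1.37, and the globin, heme and membrane lists have medians of -1.91, -0.67 and -0.81.

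Whether the difference between members and other cells itself varied with dexamethasone was tested as an interaction in the same 8 sums, with control day 1 as the one control plate. None of 15150 genes passed (0%), 316 had an unadjusted p under 0.05, and DESeq2 called 15 higher and 8 lower. The genes with the smallest p were Rhag (1.89), Fam83g, Acad10, Crip2, Nabp1 and Serpina3g upward, and Rab27b (-2.75), Il1rl1, Tmem40 (-1.95), Etnk1, F2rl2 (-3.58) and Nt5e downward. Rab27b acts in granule release. None of them had an edgeR adjusted p below 1, and over all 6 plates the sign turned for Rab27b (1.92), Il1rl1 (2.50), Nt5e (4.79) and Crip2 (-0.90).

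Dexamethasone against control within the members was tested on the 6 member sums with the day as a term. In edgeR, 0 of 10989 genes passed (0%), 231 had an unadjusted p under 0.05, and DESeq2 called 127 higher and 38 lower. The control sums of days 2 and 3 each hold 3 cells with Klf1 and no Pf4, so the kind of member and the treatment cannot be told apart there. Of 11 tested glucocorticoid receptor targets, 9 were above 0 with a median of 1.55, beside 0.20 for all genes, and none passed the test. Tsc22d3, a glucocorticoid-induced leucine zipper gene, was at 43.5, 21.3 and 0 CPM in control members of days 1 to 3 and 134, 95.3 and 129 CPM with dexamethasone. Per1, a clock gene, had 20.7, 22.7 and 7.08 CPM against 81.1, 99.7 and 29.6 CPM, and the metallothionein Mt2 had 1.07, 0 and 2.46 CPM against 9.58, 82.8 and 73.5 CPM. Every dexamethasone plate stood above every control plate for these 3 genes, with unadjusted edgeR p of 0.099, 0.022 and 0.025 and an adjusted p of 0.997 for each. Fkbp5, another target, did not separate, at 27.9, 43.99 and 44.6 CPM against 40.8, 68.8 and 1.09 CPM. Of the genes with the smallest p, Dcaf4 was at 33.5, 35.9 and 27.7 CPM against 222, 233 and 163 CPM. Pdcd4, an inhibitor of translation, was at 133, 36.3 and 43.1 CPM against 339, 430 and 435 CPM. Pklr, the red cell pyruvate kinase, was at 28.7, 382 and 247 CPM against 4.25, 55.05 and 21.5 CPM, and the mitochondrial folate enzyme Mthfd2 at 286, 713 and 411 CPM against 83.6, 149 and 95.1 CPM. The plates of Dcaf4, Pdcd4 and Mthfd2 did not overlap between treatments, those of Pklr did, and none of the 4 genes passed the adjustment (edgeR adjusted p = 0.997). These 4 genes were chosen by their small p. The share of all 10989 genes whose plates separate by treatment is not reported here. The separation of these genes, and that of Tsc22d3, Per1 and Mt2, therefore cannot be weighed. Prune2 and Gcsam were higher with dexamethasone on the same terms, and Sun1, Tpx2 and Ncapg2 lower when each day's plates are compared.

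Markers of other cell types were looked for in the members. Of 13 mast and basophil genes, 6 had a count in a member, and 7 of 53 members carried at least 2 at 10 CPM, against 23.5% of other cells; Cma1, Tpsab1, Tpsb2 and Mcpt4 were at 0. Other cells differed widely between plates in this share, from 2.22% on control day 3 to 72.8% on dexamethasone day 2. On control day 1 members had the higher share, 15.4% against 6.17%, and on dexamethasone days 1 and 2 the lower, 0% against 21.05% and 27.3% against 72.8%. The summed level of this list ran from 0 to 1530 CPM in members. Of 16 neutrophil and monocyte genes, 13 had a count in a member, and S100a9, Ngp and Fcnb were at 0. At least 2 were at 10 CPM in 10 of 53 members (18.9%), against 9.41% of other cells. The summed level ran from 0 to 10790 CPM in members and reached 50420 CPM in other cells. In the sums per plate the direction was the other way, with 9 of 10 tested genes of this list below 0. Their median log2 fold change was -3.39, and none passed the test. Mpo reached 9853 CPM in a member of control day 1, which had Klf1 below 100 CPM. Without cells carrying these genes, edgeR called 18 higher and 4 lower genes, 12 of which were among the 45; the 4 lower were Asns, Fth1, Rgcc and Sphk1. Of 16 endothelial and liver genes, 10 had a count and 20 of 53 members (37.7%) carried at least 2 at 10 CPM, against 4.71% of other cells. These were Pecam1 in 19 members, Tek in 13, Tie1 in 12 and Kdr in 4, and Pecam1 is also a platelet protein. Cdh5, the defining cadherin of endothelium, was at most 5.26 CPM, and Emcn, Lyve1, Alb, Ttr, Col1a1 and Col3a1 had no count in any member. None of the 53 members carried 2 genes of the macrophage, lymphoid or eosinophil lists at 10 CPM.

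Depth differed between members and other cells by less than the spread between plates. The plate medians of total counts differed by -48290 (SD 230300, n = 4 plates, exact sign-flip permutation p = 0.75) and of genes with a count by -154.5 (p = 0.75, the same exact test). The mitochondrial share differed by -0.335 percentage points (exact sign-flip permutation p = 0.5, where 0.125 is the smallest that 4 plates allow). A member of dexamethasone day 3 held 80190 counts, the fewest of any member, at which 10 CPM is less than 1 count.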

How the data were processed

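Whole-number gene counts per well were deposited by the authors. STAR 2.4, featureCounts and the GRCm38 build were used for them, per the submitters' processing notes; annotation release, strandedness and the handling of reads with several matches were not given in the sources used here. Molecular identifiers are not mentioned, so counts are reads and intervals cover counting error only. Of 576 value columns, 575 matched a well's label and 1 was not used; the header's 1 extra empty field was dropped.

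Wells with at least 50000 counts, 1500 genes with a count and at most 20% mitochondrial counts were kept (563 cells, 66140 to 3757116 counts, median 1092431), and 12 wells were removed. Doublets were not called. Members had at least 5 of 10 markers at 10 CPM. Counts were summed per plate over the members and over the other cells (sums of 4756691 to 21078714 counts for the members of the 4 plates tested). These sums were tested with the quasi-likelihood test of edgeR 4.0.16 (TMM, filterByExpr, Benjamini-Hochberg over all genes tested, threshold 0.05), tested on simulated data. The SE is the log2 fold change divided by the square root of F. Shares and depth were compared with exact sign-flip permutation tests. Nothing in the labels says that plates came from separate animals or cultures, so p-values measure only plate-to-plate spread, which may be technical. DESeq2 1.42.0, limma 3.58.1, other filters and left-out plates were alternatives. Coordinates are from GENCODE vM21 (GRCm38) and promoters from RefSeq (GRCm38.p6).

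Genes were named by rule: up to 14 higher and 10 lower genes past the threshold by log2 fold change, with 1 sign in every plate, at least 10 CPM in the higher side and, upward, 10 CPM in most members; the smallest p values of the other tests; and, from each list, genes past the threshold and those of high level. Members and gene lists were chosen with earlier results of these data known, and names outside the rule were chosen after their values were seen. Some genes that the rule names are not reported here.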

Additional observations from a re-analysis of the deposited data

Results flagged for a closer look

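For 2 of the genes named, 1 of the 4 plates stood apart from the other three by Dixon's criterion, which chance meets in about 1 in 20 groups. The log2 ratio of Zyx between members and other cells was 3.26 on dexamethasone day 3, where 1 cell gave 99.4% of the members' Zyx counts, and 2.88, 2.88 and 2.89 on control day 1, dexamethasone day 1 and dexamethasone day 2. For Fli1 the ratio was 1.67 on dexamethasone day 2 and 2.50, 2.59 and 2.55 on control day 1, dexamethasone day 1 and dexamethasone day 3. The summed Fli1 level of the other cells was 40.3 CPM on both control day 1 and dexamethasone day 2, and that of the members 228 and 128 CPM.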

How the results depend on the processing

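The number of genes that differed between members and other cells (40 higher, 5 lower) was 575 and 488 with DESeq2. It was 171 and 73 with limma on mean log2(CPM + 1) per cell. With at least 4 markers it was 0 higher and 1 lower (Ighm). With at least 6 it was 26 higher and 5 lower (Add2, Cldn13, Slc39a8, Sphk1 and Tmem56). When markers needed 3 counts it was 27 higher and 8 lower. Without cells carrying neutrophil or monocyte markers it was 18 higher and 4 lower (Asns, Fth1, Rgcc and Sphk1). The lower genes were 2 (Aplp2 and Fos) with no filter and 4 (Camsap2, Dusp1, Mrap and Sgk1) with no plate block. Among alternatives chosen after seeing the data, the number was 0 and 0 over all 6 plates. It was 27 higher and 8 lower without members under 300000 counts, and 13 lower for cells with at least 7 markers. The numbers of higher genes with no filter, no plate block and at least 7 markers are not reported here. Leaving out a plate gave 0 to 27 higher and 0 to 8 lower. The settings with 3 counts per marker and with members over 300000 counts equal the fit without dexamethasone day 3, which then holds fewer than 5 members. The cause of the other changes was not tested. DESeq2 called 15 higher and 8 lower genes for the interaction and 127 and 38 for dexamethasone within members, where edgeR called 0. Leaving out a day gave 0 to 5 higher genes there, Abcg1, Serpina3g, Sla and Tpm4 among them, without day 1. The interaction was not run without control day 1, since no control plate remains. The difference in total counts (-48290) was between -123800 and 37450 and that in genes with a count (-154.5) between -271 and 22.3 when a plate was left out. The difference in share, 5.42 points, lay between 3.71 and 7.08 when a day was left out and between 4.30 and 6.93 under other rules. Over all 6 plates 4 interaction estimates changed sign, Crip2 to -0.90, Rab27b to 1.92, Il1rl1 to 2.50 and Nt5e to 4.79. For single genes of the main comparison, 384 pairs of gene and setting were looked at, and all 384 kept their direction. The side of the threshold was kept in 210 of them, while 165 were weaker and 9 stronger. No paired analysis was possible because the numbers that groups share in the labels are well numbers, and the plate is already a block. Sums of 1 plate rest on 5 to 18 members, and a gene at 10 CPM in a cell is about 11 reads at the median depth.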
